A study of Mus musculus with 4 samples.

Results

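Blood cell miRNAs were followed in small RNA libraries of whole mouse testes. The 3 red cell members were mmu-miR-451a, mmu-miR-144-3p and mmu-miR-486a-5p, and the 4 white cell members were mmu-miR-142a-3p, mmu-miR-142a-5p, mmu-miR-223-3p and mmu-miR-150-5p, with the species prefix left out below. They were chosen by name, as miRNAs known from blood. They made up 7 of 1002 miRNA names with reads of 18 to 25 nt, a count of mature names that also holds let-7 hairpin names. Under the deposited names 5 of the 7 passed the filter on low counts, and miR-144-3p and miR-142a-5p did not. The libraries came from testes of 16-day-old mice, 2 with a knockdown of Hsf5 and 2 of the wild type. Hsf5 encodes a heat shock factor of spermatocytes, and the series was made to look for changes in piRNAs. The labels state neither how the knockdown was made, nor the strain, nor whether animals were pooled, and small RNA reads do not measure the Hsf5 mRNA, so the degree of knockdown was not checked. The deposited table writes KO for the libraries that the labels call knockdown, and the labels were followed. The libraries are called knockdown 1 and 2 and wild type 1 and 2 after their replicate numbers, and p-values measure the spread between these 4 samples.

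A miRNA is a short RNA cut from a hairpin, and each arm of the hairpin can give a mature form. Bases 2 to 8 of the mature form, the seed, pair with target mRNAs. Red cells have no nucleus and keep miR-451a and miR-144, which come from 1 primary transcript, and miR-486, which lies within the gene of the red cell membrane protein ankyrin and is also made in muscle. miR-451a is unusual because the slicer protein Ago2, and not Dicer, cuts its hairpin, and the long product is then trimmed at its 3′ end. The miR-142 hairpin is active across blood cell types, miR-223 is abundant in neutrophils and other myeloid cells, and miR-150 is abundant in mature lymphocytes. A whole testis holds vessels and blood, and macrophages lie between its tubules, so these miRNAs can enter a library without germ cells. In a bulk sample, fewer blood cells and less miRNA per blood cell cannot be told apart.

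The sequences are shown because the names and ends of the reads decided several of the values below. Capitals mark the seed. RefSeq (GRCm38.p6) gave mature sequences for 5 of the 7 members, and miR-486a-5p and miR-150-5p are shown as their most abundant deposited read.
miR-451a, RefSeq: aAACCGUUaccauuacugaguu
miR-144-3p, RefSeq: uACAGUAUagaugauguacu
miR-486a-5p, deposited: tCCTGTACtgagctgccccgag
miR-142a-3p, RefSeq: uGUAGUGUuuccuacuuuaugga
miR-142a-5p, RefSeq: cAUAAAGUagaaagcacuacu
miR-223-3p, RefSeq: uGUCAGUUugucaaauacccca
miR-150-5p, deposited: tCTCCCAAcccttgtaccagtg
No seed is shared between members. On GRCm39, Mir144 (chromosome 11, 77963831 to 77963896) and Mir451a (chromosome 11, 77963996 to 77964067) lie in an exon of the lncRNA Gm57805. Mir142 (chromosome 11, 87647690 to 87647753) lies in an exon of the lncRNA Mir142hg, Mir223 (chromosome X, 95286423 to 95286532) in an exon of Mir223hg, and Mir150 (chromosome 7, 44771181 to 44771245) in an exon of the lncRNA Gm45552. Mir486 (chromosome 8, 23632571 to 23632698) lies in an intron of Ank1. All 6 hairpins are on the plus strand.

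Counted reads were 9619666 and 10900306 in knockdown 1 and 2 and 11117460 and 9260452 in wild type 1 and 2. Levels are given as CPM, counts per 1000000 miRNA reads of 18 to 25 nt after TMM scaling, which evens out library composition. The TMM factor of knockdown 2 was 0.712, against 1.13 in knockdown 1 and 1.10 and 1.12 in wild type 1 and 2. A single read was worth 0.411 and 0.684 CPM in knockdown 1 and 2 and 0.407 and 0.579 CPM in wild type 1 and 2. Reads shorter than 25 nt that the authors gave to no miRNA made up 30.9% and 11.1% of knockdown 1 and 2 and 22.4% and 22.7% of wild type 1 and 2. Knockdown 2 therefore stood apart in composition before any blood cell miRNA was compared.

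None of the 5 members that passed the filter was called between knockdown and wild type. All 936 miRNA names that passed were tested by quasi-likelihood in edgeR, and 0 of them (0%) had a Benjamini-Hochberg adjusted p under 0.05. Of the 5 members, 2 had a positive and 3 a negative log2 difference, as 50.3% and 49.7% of all names tested had. DESeq2 called 0 as well, and 14 names (1.5%) had an unadjusted edgeR p under 0.05, 4 higher and 10 lower. The fitted coefficient of variation, which edgeR calls biological, was 0.603 by name. In simulated data with that spread the same test recovered 0% of 2-fold and 0% of 4-fold changes. With 1 name per sequence over the libraries the coefficient was 0.411, so the 0.603 also holds changes of name between libraries. Recovery at 0.411 was not simulated. With 2 libraries a group an exact permutation test of a single value cannot give a p under 0.333. The values of each library are therefore the result, and a missing call does not show that a member was level.

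Among the red cell miRNAs, miR-451a, a miRNA of maturing red cells, had 56 and 56 reads in knockdown 1 and 2 and 56 and 46 reads in wild type 1 and 2. That came to 23 and 38.3 CPM in knockdown (30.7 ± 10.8, SD, n = 2) and 22.8 and 26.6 CPM in wild type (24.7 ± 2.72, SD, n = 2). Knockdown 2 was highest and knockdown 1 lay among the wild types, so the groups overlapped. The log2 difference, knockdown over wild type, was 0.31 (SE 0.51, edgeR adjusted p = 0.992). It was -0.049 without knockdown 2 and -0.047 when mature miRNA reads set the library size, so the direction rested on that library and its scaling.

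miR-144-3p, which is transcribed together with miR-451a, was near the limit of detection. It had 2 and 1 reads in knockdown 1 and 2 and 2 and 2 reads in wild type 1 and 2. Every library was under the floor of 3 counts, the number that a count of 0 still allows, and no direction was read from it. Its other arm, miR-144-5p, had 6 and 2 reads in knockdown and 3 and 5 reads in wild type when reads were counted by their place on the hairpin. The 2 partners of the transcript were thus at very different depths in the same libraries.

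miR-486a-5p was the most abundant member, at rank 252 of the 936 names by mean level. Under the deposited name it had 329 and 62 reads in knockdown 1 and 2 and 380 and 261 reads in wild type 1 and 2. On the scaled measure these were 135 and 42.4 CPM in knockdown (88.8 ± 65.6, SD, n = 2) and 155 and 151 CPM in wild type (153 ± 2.47, SD, n = 2). Both knockdown libraries were below both wild types, as they were for 17.7% of all names tested, and nearly all of the gap came from knockdown 2. The log2 difference was -0.78 (SE 0.60, edgeR adjusted p = 0.992). Without knockdown 1, with knockdown 2 as the lone knockdown library, it was -1.80, and without knockdown 2 it was -0.13.

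The names given to 1 sequence differed between the libraries. The arms miR-486a-5p and miR-486b-5p are 1 sequence with 2 places on opposite strands of the same locus (chromosome 8, 23632603 to 23632624, plus, and 23632643 to 23632664, minus). The 22 nt read shown above was named miR-486a-5p in knockdown 1 (304 reads), wild type 1 (319 reads) and wild type 2 (251 reads), but miR-486b-5p in knockdown 2 (224 reads). The same read without its last base, 21 nt long, went the other way in part.
22 nt read: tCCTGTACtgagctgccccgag
21 nt read: tCCTGTACtgagctgccccga
The 21 nt read stood under miR-486b-5p in knockdown 1 (118 reads) and wild type 2 (37 reads), and under miR-486a-5p in knockdown 2 (42 reads) and wild type 1 (54 reads). The share of miR-486 5p reads that carried the b name was therefore 26.6% and 78.6% in knockdown 1 and 2 and 0.262% and 12.7% in wild type 1 and 2.

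**Figure D1:**
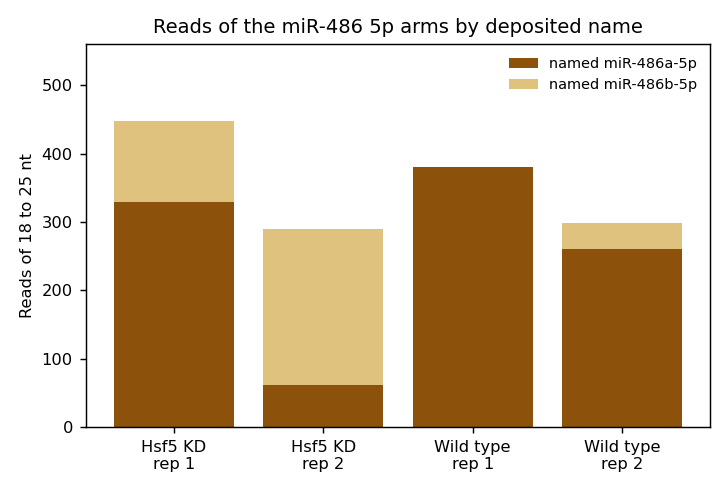
Reads of 18 to 25 nt named miR-486a-5p (dark) and miR-486b-5p (light), stacked, in each library; the vertical axis is the number of reads. Knockdown 2 has 62 reads under the a name and 228 under the b name, while its total of 290 reads is close to the 299 of wild type 2.

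With the 2 names added together, there were 448 and 290 reads in knockdown 1 and 2 and 381 and 299 reads in wild type 1 and 2. Counted by their place on the hairpin, the miR-486 5p arms had 184 and 198 CPM in knockdown (191 ± 9.81, SD, n = 2) and 155 and 173 CPM in wild type (164 ± 12.5, SD, n = 2). On that scale both knockdown libraries were above both wild types, as they were for 11.4% of the 932 names in that counting, and the log2 difference was 0.22 (SE 0.31, edgeR adjusted p = 0.992). Without TMM the same reads came to 229 and 156 per 1000000 mature miRNA reads in knockdown 1 and 2 and 191 and 214 in wild type 1 and 2, with knockdown 2 lowest and the groups overlapping. The log2 difference was then -0.07 (SE 0.47, edgeR adjusted p = 0.998). Knockdown 2 was thus nearer to the other libraries by place than by name on both scales, while the direction between the groups depended on the scaling. Counting by place, with and without TMM, was chosen after the data were seen. Name splitting of this kind touched 381 reads of miR-486a-5p sequences and no read of the sequences of the other 6 members.

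Among the white cell miRNAs, miR-150-5p, abundant in lymphocytes, was the most abundant. It had 192 and 39 reads in knockdown 1 and 2 and 113 and 107 reads in wild type 1 and 2. Scaled levels were 78.9 and 26.7 CPM in knockdown (52.8 ± 36.9, SD, n = 2) and 46.0 and 61.9 CPM in wild type (54.0 ± 11.3, SD, n = 2). The knockdown libraries were the highest and the lowest of the 4 and enclosed both wild types. The log2 difference was -0.03 (SE 0.63, edgeR adjusted p = 0.994), and its sign changed with the scaling and with the library left out: it was 0.60 without knockdown 2 and -0.97 without knockdown 1.

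miR-223-3p, a myeloid miRNA, had 32 and 16 reads in knockdown 1 and 2 and 21 and 18 reads in wild type 1 and 2. These were 13.1 and 10.9 CPM in knockdown (12.04 ± 1.55, SD, n = 2) and 8.54 and 10.4 CPM in wild type (9.48 ± 1.33, SD, n = 2). Both knockdown libraries were above both wild types, as they were for 11.3% of all names tested. The gap between knockdown 2 and wild type 2 was smaller than the worth of 1 read in either, and without TMM the groups overlapped, with 16.4 and 8.63 reads per 1000000 mature miRNA reads in knockdown 1 and 2 and 10.5 and 12.9 in wild type 1 and 2. The log2 difference was 0.35 (SE 0.50, edgeR adjusted p = 0.992).

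miR-142a-3p and miR-142a-5p are the arms of 1 hairpin. By name, miR-142a-3p had 17 and 3 reads in knockdown 1 and 2 and 24 and 12 reads in wild type 1 and 2, or 6.98 and 2.05 CPM in knockdown and 9.76 and 6.95 CPM in wild type. Knockdown 1 lay level with wild type 2, and knockdown 2 was the lowest. The log2 difference was -0.83 (SE 0.72, edgeR adjusted p = 0.992), and it was -1.96 without knockdown 1 and -0.22 without knockdown 2. miR-142a-5p had 2 and 1 reads under its name in knockdown 1 and 2 and 2 and 2 reads in wild type 1 and 2.

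The low count of miR-142a-5p again depended on the name. Of 256 reads of 18 to 25 nt that matched the 5p arm, 249 (97.3%, Wilson 95% interval 94.5 to 98.7%) stood under the hairpin name mir-142a. They began before the first base of the RefSeq form. In 88.3% of the reads the start was 2 bases upstream, in 8.98% it was 3 bases upstream, and in 2.73% it was the RefSeq base. The most abundant read is set here against the RefSeq form, with bases 2 to 8 of each in capitals.
RefSeq: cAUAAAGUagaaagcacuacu
deposited, 148 reads: cCCATAAAgtagaaagcact
Bases 2 to 8 of the deposited read are thus not those of the RefSeq form. By place, the 5p arm had 97 and 36 reads in knockdown 1 and 2 and 62 and 61 reads in wild type 1 and 2, or 39.9 and 24.6 CPM in knockdown (32.3 ± 10.8, SD, n = 2) and 25.2 and 35.3 CPM in wild type (30.3 ± 7.14, SD, n = 2). The groups overlapped, with a log2 difference of 0.10 (SE 0.51, edgeR adjusted p = 0.992), or -0.11 (SE 0.74, edgeR adjusted p = 0.998) without TMM. In this counting the 5p arm had more reads than the 3p arm in every library, whereas by name it had fewer.

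The 3p arm of the same hairpin also had shifted starts. A start 1 base downstream of the RefSeq base was found in 67.9% of its 56 reads, and the most abundant of these had 33 reads.
RefSeq: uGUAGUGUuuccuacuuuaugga
deposited, 33 reads: gTAGTGTTtcctactttatgga
The downstream start took 70.6% and 0% of the reads in knockdown 1 and 2 and 83.3% and 50.0% in wild type 1 and 2, but the knockdown 2 value rests on 3 reads. miR-223-3p began at the RefSeq base in 88.5% of its reads, and miR-451a in 100%.

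**Figure D2:**
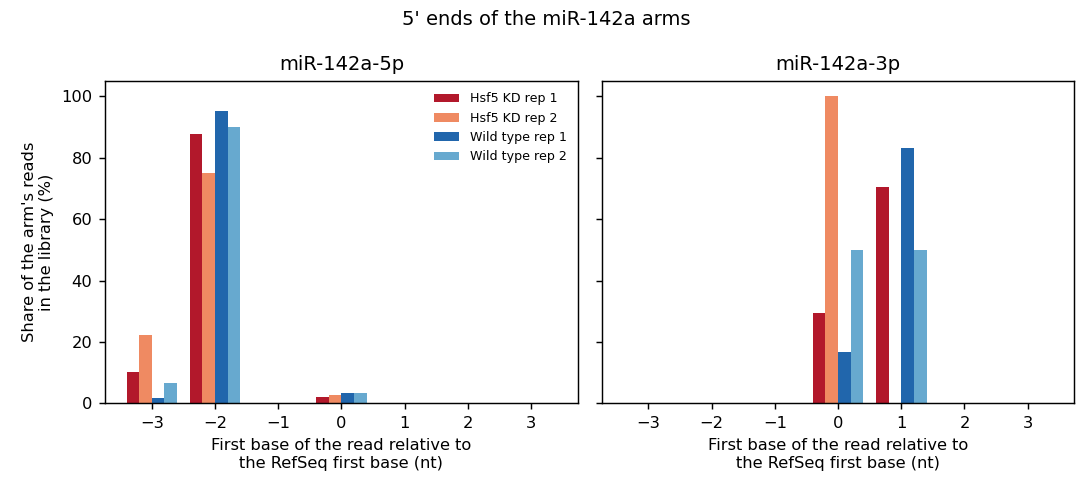
Share of the reads of each miR-142a arm (percent of the library's reads of that arm, 18 to 25 nt) by the position of their first base relative to the RefSeq first base, in nt; bars are the 4 libraries. The 5p arm starts mainly 2 bases upstream in every library, and the 3p arm starts at the RefSeq base or 1 base downstream.

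**Figure D3:**
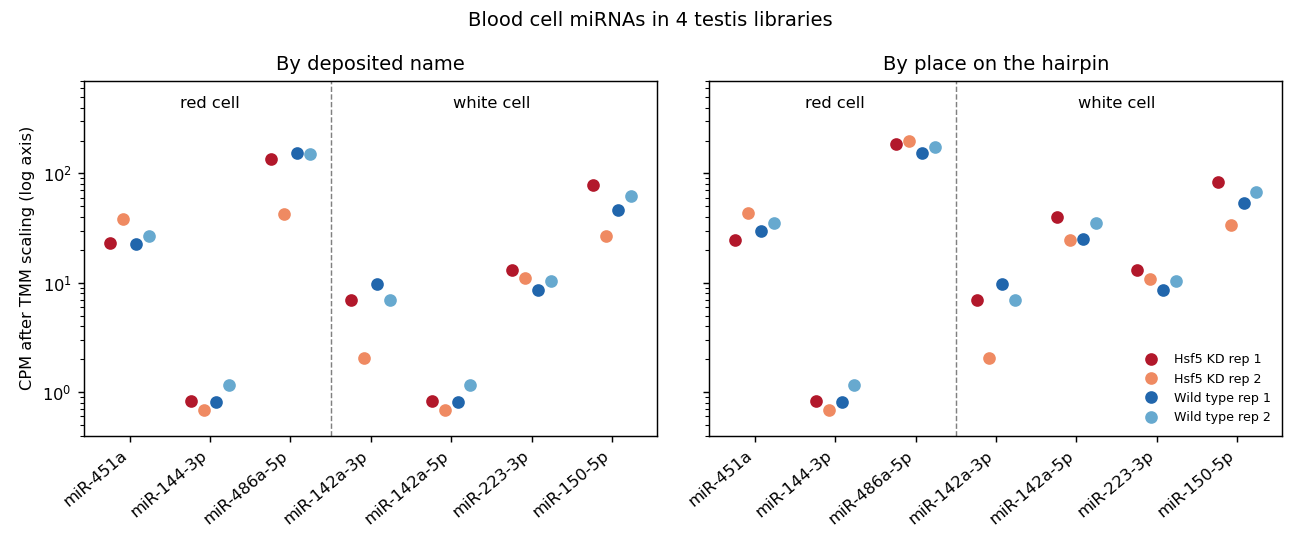
Level of the 7 members in each library, in CPM after TMM scaling on a log axis, by deposited name (left) and by place on the hairpin (right). On this scale knockdown 2 is low for miR-486a-5p on the left but not on the right, miR-142a-5p is near 1 read on the left and between 24.6 and 39.9 CPM on the right, and miR-150-5p and miR-142a-3p are lowest in knockdown 2 in both.

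Read length added a second description of miR-451a, whose hairpin is shown with the RefSeq mature form in capitals.
Mir451a hairpin, RefSeq: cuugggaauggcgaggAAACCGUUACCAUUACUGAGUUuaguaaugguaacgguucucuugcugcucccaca
Over all lengths 75 and 93 reads of knockdown 1 and 2 and 105 and 75 reads of wild type 1 and 2 began at its first mature base. Reads of 21 and 22 nt made up 59.2% of these 348 reads. A second group of exactly 26 nt made up 25.3% (Wilson 95% interval 21.01 to 30.1%) and was a single sequence, which lay outside the 18 to 25 nt window and under the hairpin name.
miR-451a, 21 nt, 146 reads: aAACCGTTaccattactgagt
miR-451a, 26 nt, 88 reads: aAACCGTTaccattactgagtttagt
The 26 nt form took 20% and 32.3% of the reads in knockdown 1 and 2 and 27.6% and 18.7% in wild type 1 and 2, with the groups overlapping. Reads of 23 to 25 nt took 5.33% and 7.53% in knockdown 1 and 2 (4 and 7 reads) and 16.2% and 20% in wild type 1 and 2 (17 and 15 reads). Both knockdown libraries were lower in that class, but the Wilson intervals of knockdown 2 (3.69 to 14.7%) and wild type 1 (10.4 to 24.4%) overlapped. Counted by place within 18 to 25 nt, miR-451a had 24.7 and 43.1 CPM in knockdown and 29.7 and 35.3 CPM in wild type, a log2 difference of 0.06 (SE 0.51, edgeR adjusted p = 0.992). Without TMM, per 1000000 mature miRNA reads, it had 30.7 and 34.0 reads in knockdown 1 and 2. Wild type 1 and 2 had 36.4 and 43.7 reads. Both knockdown libraries were lower, with a log2 difference of -0.31 (SE 0.64, edgeR adjusted p = 0.998). The share of all names that separate in this way was counted only after TMM, where it was 17.5% by place.

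**Figure D4:**
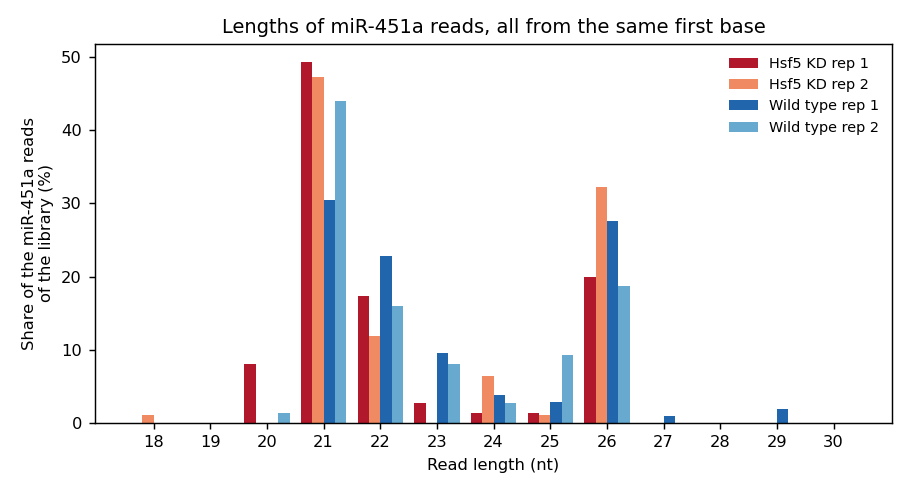
Share of the miR-451a reads of each library (percent) by read length in nt, over reads that start at the mature first base; bars are the 4 libraries. All 4 libraries have a peak at 21 to 22 nt and another at 26 nt. Over 23 to 25 nt together the wild types have larger shares, but at 24 nt knockdown 2 is the highest library.

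Some reads of the members ended in 1 to 3 bases that departed from the hairpin and matched the genome nowhere as a whole. They stood outside the miRNA class, most of them under repeat names. Their end bases are called added here, but a changed or misread base near the end was counted in the same way. Of the 9 such reads of miR-451a, 5 were in the gene class. miR-150-5p with an added T, the capital in the sequence, had 52 reads under the LINE family Lx6.
miR-150-5p with an added T: tctcccaacccttgtaccagtgT
It had 19 and 7 reads in knockdown 1 and 2 and 18 and 8 reads in wild type 1 and 2. Reads with 1 to 3 added bases were 10.2% of all miR-150-5p reads, placed and tailed together, and 5.71% of those of the miR-486 5p arms, where 84 of 86 were named as LTR elements. An untailed 23 nt form of miR-223-3p, with 12 and 5 reads in knockdown 1 and 2 and 14 and 9 reads in wild type 1 and 2, was named as the LTR element MLT2D. With it added, miR-223-3p had 18.1 and 14.4 CPM in knockdown 1 and 2 and 14.2 and 15.6 CPM in wild type 1 and 2, and the groups overlapped. Tailed reads and this form are in no other count of the members.

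Summed by name, the 3 red cell miRNAs had 159 and 81.4 CPM in knockdown 1 and 2 and 178 and 179 CPM in wild type 1 and 2. By place the same sum was 210 and 242 CPM in knockdown and 186 and 210 CPM in wild type, with knockdown 1 and wild type 2 level. The log2 difference of the group means was -0.57 by name and 0.19 by place. Without TMM the sum by place was 0.0261% (Wilson 95% interval 0.0239 to 0.0285%) and 0.0191% (0.0172 to 0.0212%) of the mature miRNA reads of knockdown 1 and 2 and 0.0228% (0.0208 to 0.0250%) and 0.0259% (0.0234 to 0.0287%) of those of wild type 1 and 2. Knockdown 2 was lowest on that scale, and the log2 difference was -0.11, so the direction of the red cell sum depended on the names and on the scaling.

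The 4 white cell miRNAs summed to 99.8 and 40.4 CPM by name in knockdown 1 and 2 and to 65.1 and 80.5 CPM in wild type 1 and 2. By place the sum was 144 and 71.1 CPM in knockdown and 96.8 and 121 CPM in wild type. Under both countings knockdown 1 was the highest library and knockdown 2 the lowest, and the log2 differences were -0.05 by name and -0.02 by place. The white cell sum of knockdown 1 was 2.03 times that of knockdown 2 by place and 2.47 times by name. Without TMM, by place the white cell reads were also highest in knockdown 1 and lowest in knockdown 2, at 0.0179% (Wilson 95% interval 0.0161 to 0.0199%) and 0.00561% (0.00463 to 0.00680%) of the mature miRNA reads of knockdown 1 and 2. They were 0.0119% (0.0105 to 0.0135%) and 0.0150% (0.0131 to 0.0171%) in wild type 1 and 2. These intervals are each from 1 library and cover counting error only. PCR copies of a molecule were counted as separate reads, so the intervals can be too narrow even for that error.

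The ratio of red to white cell miRNAs needs no library scaling. By name it was 1.59 and 2.02 in knockdown 1 and 2 and 2.74 and 2.22 in wild type 1 and 2. It was lower in both knockdown libraries, and how often ratios of other miRNAs separate in this way was not tested. By place it was 1.46 and 3.40 in knockdown and 1.92 and 1.73 in wild type, with the knockdown libraries on both sides. After TMM, knockdown 2 was the highest library for the red and the lowest for the white cell sum by place. As shares of mature miRNA reads, both sums by place had knockdown 1 highest, then wild type 2, wild type 1 and knockdown 2. The order of the libraries by the red cell sum therefore depended on the scaling. The white cell sum by place kept its order with and without TMM.

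Fragments of blood cell mRNAs gave a measure from other reads. Reads that matched the sense strand of globin mRNAs and no other annotated gene, the mRNAs of the oxygen carrier of red cells, numbered 26 and 14 in knockdown 1 and 2 and 3 and 3 in wild type 1 and 2. In reads per 1000000 counted reads this was 2.70 (exact Poisson 95% interval 1.77 to 3.96) and 1.28 (0.702 to 2.15) in knockdown and 0.270 (0.0556 to 0.789) and 0.324 (0.0668 to 0.947) in wild type. Both knockdown libraries were higher, and no read matched the antisense strand. The reads came from 15 and 8 distinct sequences in knockdown 1 and 2 and 3 and 2 in wild type 1 and 2. How many other genes separate in this way was not counted. Reads shared by Hbb-bs and Hbb-bt, the adult beta globin genes, made up 17 and 12 reads in knockdown 1 and 2 and 0 and 2 in wild type 1 and 2. Reads shared by the alpha globin genes Hba-a1 and Hba-a2 were 9 and 1 in knockdown and 1 and 1 in wild type.

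Of the 46 globin reads, 45 were shorter than 25 nt and had been named as other classes than genes. Those of 18 nt or longer numbered 18 and 12 in knockdown 1 and 2 and 2 and 3 in wild type 1 and 2. Matches of the mRNA fragments to the genome outside annotated transcripts were not searched, so such a source of these short reads was not tested. The share of short reads outside the miRNA class was highest in knockdown 1 and lowest in knockdown 2, as given above, and its part in the globin count was not tested. The other red cell mRNAs, of the haem enzyme Alas2 and the anion exchanger Slc4a1, had 0 and 1 sense reads in knockdown 1 and 2 and 0 and 0 in wild type 1 and 2. Their antisense reads were 4 and 0 in knockdown 1 and 2 and 1 and 2 in wild type 1 and 2, more than the sense reads, so these 2 genes gave no measure of red cell mRNA.

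Fragments of white cell mRNAs numbered 18 and 1 reads in knockdown 1 and 2 and 9 and 12 in wild type 1 and 2. Per 1000000 counted reads these were 1.87 (exact Poisson 95% interval 1.11 to 2.96) and 0.0917 (0.00232 to 0.511) in knockdown and 0.810 (0.370 to 1.54) and 1.30 (0.670 to 2.26) in wild type. Cd74, the invariant chain of antigen-presenting cells, had 7 and 0 reads in knockdown 1 and 2 and 1 and 5 in wild type 1 and 2. Laptm5, a lysosomal protein of blood cells, had 3 and 1 reads in knockdown and 1 and 2 in wild type. Reads shared by the lysozyme genes Lyz1 and Lyz2 were 4 and 0 in knockdown and 1 and 1 in wild type. Reads of Lyz2 alone were 0 and 0 in knockdown and 4 and 2 in wild type. Ptprc had 0 and 0 reads in knockdown and 2 and 2 in wild type. Tyrobp had 3 and 0 reads in knockdown and Cd52 had 1 and 0, with 0 and 0 in wild type for both. The white cell mRNAs had 1 and 1 antisense reads in knockdown and 1 and 1 in wild type, so in knockdown 2 the sense count was no higher than the antisense count. Over all white cell mRNAs together, knockdown 1 was highest and knockdown 2 lowest. Of these 40 reads 30 were shorter than 25 nt, and the share of short reads outside the miRNA class, given above, was also highest in knockdown 1 and lowest in knockdown 2. Its part in this order was not tested. White cell reads of 18 nt or longer numbered 17 and 1 in knockdown 1 and 2 and 8 and 11 in wild type 1 and 2. Fragments of either kind of mRNA that also matched another annotated gene, 90 and 11 reads in knockdown 1 and 2 and 38 and 50 reads in wild type 1 and 2, were left out of all these counts.

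**Figure D5:**
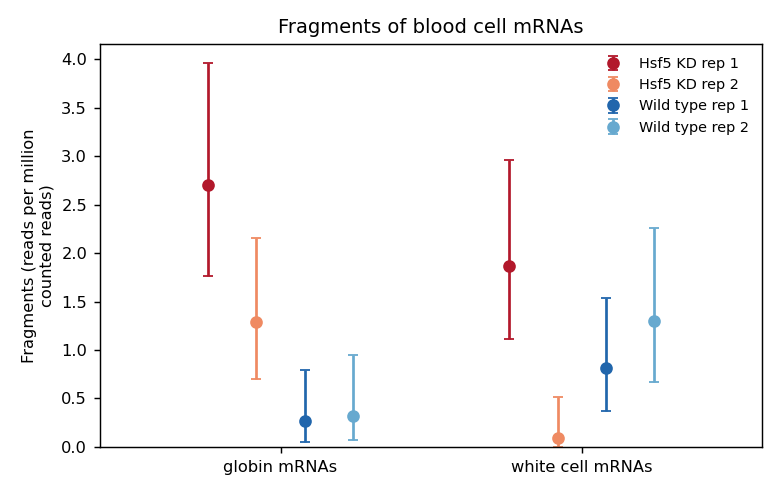
Fragments of globin and white cell mRNAs in each library, in reads per 1000000 counted reads, with exact 95% Poisson intervals that cover counting error only. Both knockdown libraries lie above both wild types for globin, and knockdown 2 is lowest for the white cell mRNAs. Fragments of other genes were not counted for comparison.

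The other arms of these hairpins and miRNAs of other testis cells gave the setting. Of 6 other arms, 4 were tested and 0 called. Their sum was 53.4 and 166 CPM in knockdown 1 and 2 and 8.54 and 28.9 CPM in wild type 1 and 2. In knockdown it was nearly all miR-486b-5p, with 48.9 and 156 CPM, beside 0.407 and 22 CPM in wild type. By name miR-223-5p had 1.64 and 2.74 CPM in knockdown and 2.85 and 3.47 CPM in wild type. Both knockdown libraries were lower, as they were for 17.7% of all names tested, but by place the groups overlapped. miR-486a-3p had 1.23 and 4.10 CPM in knockdown and 3.25 and 0.579 CPM in wild type. miR-150-3p had 2 and 2 reads in knockdown and 2 and 0 in wild type, and miR-486b-3p had 0 in every library. Of 4 widely expressed miRNAs that are abundant in red cells, 2 had a positive and 2 a negative log2 difference, with a median of 0.08, beside 0.01 over all names tested. miR-25-3p had 7160 and 10924 CPM in knockdown and 6979 and 7686 CPM in wild type, and miR-16-5p had 609 and 599 CPM in knockdown and 671 and 637 CPM in wild type. Of 6 further miRNAs of white cells, 3 were positive and 3 negative, with a median of -0.02. miR-181a-5p had 3880 and 2585 CPM in knockdown and 3331 and 3482 CPM in wild type, and miR-342-3p had 912 and 787 CPM in knockdown and 893 and 893 CPM in wild type. Both were lowest in knockdown 2, as were miR-342-5p and miR-155-5p, but miR-146b-5p was highest there, with 73.9 and 108 CPM in knockdown and 79.3 and 94.95 CPM in wild type. miR-146a-5p had 231 and 187 CPM in knockdown and 180 and 195 CPM in wild type.

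Marker miRNAs of vessels and other tissues are given beside these, and their part in the values above was not tested. The endothelial miR-126a-3p had 3274 and 1955 CPM in knockdown 1 and 2 and 3554 and 3786 CPM in wild type 1 and 2, and miR-126a-5p had 70.6 and 49.9 CPM in knockdown and 46.4 and 65.4 CPM in wild type. Of the smooth muscle pair, miR-143-3p had 25751 and 52198 CPM in knockdown and 23912 and 28037 CPM in wild type, and miR-145a-5p had 5733 and 5528 CPM in knockdown and 8857 and 6426 CPM in wild type. Knockdown 2 was thus the lowest library for miR-126a-3p and the highest for miR-143-3p. Of the 3 skeletal muscle miRNAs, miR-1a-3p had 1167 and 2466 CPM in knockdown and 1431 and 1273 CPM in wild type, and miR-133a-3p had 6.16 and 10.3 CPM in knockdown and 7.73 and 9.26 CPM in wild type, while miR-206-3p had 0 reads in knockdown 2. The Sertoli cell pair miR-202-5p and miR-202-3p summed to 3260 and 2334 CPM in knockdown and 3565 and 3036 CPM in wild type. miR-34c-5p of spermatocytes had 4764 and 8855 CPM in knockdown and 3769 and 6166 CPM in wild type, and miR-449a-5p had 124 and 65.7 CPM in knockdown and 54.5 and 113 CPM in wild type. The liver miRNA miR-122-5p had 1.23 and 4.79 CPM in knockdown and 1.22 and 0.579 CPM in wild type. None of the tested miRNAs of these lists was called.

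The patterns most like those of the most abundant members were sought by the root mean square difference of centred log2 CPM. The candidates were 392 mature and let-7 hairpin names with a mean of at least 10 CPM over the 4 libraries. Nearest to miR-486a-5p by name, the profile that carries the split of names, were miR-296-5p (0.0750), miR-351-3p (0.0805) and miR-342-5p (0.0809). miR-296-5p had 417 and 116 CPM in knockdown 1 and 2 and 433 and 410 CPM in wild type 1 and 2. Nearest to miR-150-5p were miR-425-5p (0.106), miR-485-5p (0.127) and miR-27a-3p (0.137). miR-425-5p had 105 and 41.7 CPM in knockdown and 59.4 and 88.0 CPM in wild type.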

How the data were processed

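Small RNA libraries of whole testes were deposited as 1 table with a line for each sequence, library and annotation. Its read counts are raw and were made by the authors. Another column holds a ratio, the authors' scaling factor, equal to 1000000 divided by the mature miRNA reads (0.512 and 0.539 in knockdown 1 and 2, 0.499 and 0.716 in wild type 1 and 2) and used here as an alternative scale. The submitters' processing notes list cutadapt, an adaptor trimmer, and the build mm39. The aligner is not given in the sources used here. Lines numbered 12700077 in all, for 6208912 pairs of sequence and library, 16 to 47 nt long, and each pair was counted once.

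Reads of 18 to 25 nt of the miRNA class were summed by name, mature and hairpin names apart, in the 4 libraries. Names with 1 CPM in at least 2 libraries, 936 of 1544, were tested in edgeR 4.0.16 (R 4.3.3; TMM, robust quasi-likelihood, Benjamini-Hochberg) with no covariate, and in DESeq2 1.42.0 as an alternative. In simulated data of 936 features the fit recovered 0% of 2-fold and 0% of 4-fold changes at the fitted spread, and 40% and 73%, with 6 false calls, at a coefficient of variation of 0.2. Sums over members have no p. Counts by name of the 2 libraries of a group differed beyond sampling noise (chi-square per degree of freedom 585 in knockdown and 161 in wild type). Changes of name between libraries enter these 2 values, which were not computed with 1 name per sequence. Counting by place took reads under the arm and hairpin names of the members, and under miR-486b. Of these it kept reads that match the hairpin exactly and start within 3 bases of an arm. Reads under other names were not tried, such as mir-142b, a hairpin on the opposite strand with 0.579 to 5.47 CPM by library. Tailed reads had at least 18 matching bases and then 1 to 3 bases from the first mismatch on, so a changed last base counts as a tail. The table pairs no gene names with gene reads, so mRNA fragments of at least 16 nt were matched exactly to GENCODE M39 transcripts; Hbb-b1 and Hbb-b2 are not in that annotation. Places are from GRCm39.

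Named were all members, the other arms and the 2 most abundant miRNAs of each marker list. Also named were the 3 nearest in pattern to the most abundant red and white cell member. Of the mRNAs, the leading globin mRNAs and all white cell mRNAs with reads were named. Members and lists were chosen with earlier results of these data known.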

Additional observations from a re-analysis of the deposited data

How the results depend on the processing

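The count of 0 called miRNAs was also 0 with RLE factors, DESeq2, either library size without TMM, all lengths, 20 to 24 nt, 1 name per sequence, counting by place (with and without TMM) and miR-486 united. It was 2 with no filter (miR-199a-3p and miR-7686-5p, lower in knockdown, no member) and 0 to 53 when 1 library was left out: 53 without knockdown 1, with miR-486a-5p the single member, 4 without knockdown 2, 4 without wild type 2 and 0 without wild type 1. A lone library is assumed there to vary like the other group. With the filter, miR-199a-3p had 250 and 1540 CPM in knockdown 1 and 2 and 5943 and 3245 CPM in wild type 1 and 2. The name miR-199b-3p went the other way, with 7403 and 2718 CPM in knockdown and 0 and 4159 CPM in wild type. Whether reads were split between these 2 names, as in miR-486, was not tested. With the replicate block the count was 0, and 9 names in place of 14 had an unadjusted p under 0.05. The correlation of deviations was 0.25 for equal and -0.25 for unequal replicate numbers. With 2 libraries a group these values mirror each other, so they cannot show whether the numbers pair the libraries. Of 80 recomputed member values, 68 kept their direction and side of the threshold. miR-150-5p turned to 0.011 with RLE, 0.013 with DESeq2 and 0.11 with all counted reads as library size, 0.60 without knockdown 2 and 0.23 without wild type 2 (log2 range over left-out libraries -0.97 to 0.60). miR-451a turned to -0.047 with mature reads as library size, to -0.31 by place without TMM and to -0.049 without knockdown 2 (-0.049 to 0.68). miR-486a-5p turned to 0.13 with 1 name per sequence, 0.22 by place and 0.22 united, but was -0.07 by place without TMM; over left-out libraries it ranged from -1.80 to -0.13. The red cell sum moved to 0.16 with 1 name per sequence, 0.19 by place, 0.23 united and 0.29 without miR-486a-5p, and the red to white ratio to 0.30, 0.29, 0.42 and 0.44; by place without TMM the red sum was -0.11 and the ratio, which has no scale, 0.29. Over left-out libraries the red sum ranged from -1.09 to -0.12, the white sum from -0.80 to 0.51 and the ratio from -0.63 to -0.29. The causes of these moves were not tested. Depth limits miR-144-3p and, by name, miR-142a-5p, at 1 or 2 reads a library.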
